A study of Mus musculus with 16 samples.

Results

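The kinesin family, the motor proteins that walk along or take apart microtubules, was followed through 4 sorted cell types of the mouse testis with and without Tex10. Members were all genes of the deposited table whose symbol begins with Kif or Kifc followed by a digit, which gave 38 of 13100 genes. Of these, 35 encode kinesin motors, from 12 subfamilies. The others were Kif1bp, which encodes a protein that binds kinesin motors, Kif4-ps, a transcribed pseudogene of Kif4, and Kif16bos, an RNA named for the strand opposite Kif16b. Counts below are over the 35 motor genes unless all 38 members are named. The kinesin-7 motor Cenpe and the kinesin-2 subunit Kifap3 have other symbols and are given at the end.

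The Tex10-deficient mice (KO below) had the genotype Tex10f/-; Stra8iCre, a floxed allele over a null allele with Cre under the Stra8 promoter, which is active from spermatogonia onwards. The wild-type mice had no floxed allele or Cre named in the labels. All were C57BL/6J males of 8 weeks. PolyA-enriched RNA was sequenced from spermatogonia, MI spermatocytes, MII spermatocytes and spermatids, as 16 libraries in 8 groups of 2. The sources used here do not give how the cells were sorted, or whether both libraries of a group stem from different or pooled animals. The p-values therefore cover only the spread of the libraries at hand, which may be technical. Each gene's spread was estimated from all 8 groups together, so a standard error (SE) is not the spread of the groups compared alone. Replicates agreed least in wild-type MII spermatocytes (Spearman rho across genes 0.881, against 0.922 to 0.971 in the other groups). Levels are FPKM, fragment numbers scaled by transcript length and by the size of the library. Changes are log2 differences of FPKM + 1 from limma, with a gene called where its p, adjusted by Benjamini and Hochberg over the 13099 genes tested, was under 0.05.

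Kinesins share a motor domain that turns ATP hydrolysis into movement. In dividing cells a set of them builds the spindle, aligns chromosomes and completes cytokinesis. Kinesin-2 motors carry material into cilia and into the growing sperm flagellum, and kinesin-1 and kinesin-3 motors carry vesicles and organelles. The 35 genes were grouped by these textbook roles into 14 of the spindle and cytokinesis, 9 of the cilium and intraflagellar transport and 11 of cargo transport, with Kifc3, a minus-end motor known from epithelial cell junctions, left on its own.

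Tex10 itself was lower in each of the 8 KO libraries than in both wild-type libraries of its cell type, with 7.29 to 34.8 FPKM in KO and 13.8 to 116 FPKM in wild type (average log2 difference -1.68, SE 0.15, limma adjusted p = 0.00049). For 6 of the 8 KO libraries the labels disagree, with one cell type in the title and another in the field for it. Titles were used. By expression, 8 of 8 KO libraries lay nearest to the wild-type group that their title names, and 2 of 8 to the one that their field names. Somatic transcripts were abundant in the MII libraries, where 8 Leydig cell markers summed to between 944 and 1513 FPKM, against 16.6 to 244.5 FPKM in the libraries of other cell types. In bulk RNA, fewer cells of a type and less RNA per cell cannot be told apart. The summed level of the 35 kinesins was lowest in MII libraries, at 186 and 276 FPKM in KO and 267 and 468 FPKM in wild type, and highest in spermatids, at 1842 and 1922 FPKM in KO and 1901 and 2198 FPKM in wild type. Summed FPKM over all genes also differed, at 512412 and 533859 in wild-type spermatids and 277335 and 302210 in MI spermatocytes. It was 263763 and 249336 in wild-type MII spermatocytes and 196944 and 199649 in spermatogonia. The kinesin sums are thus not shares of a common total.

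Promoters of 7 kinesin genes are shown because the genes differ in when they were highest. Each window runs from 250 bases before to 50 bases after the RefSeq transcript start (build GRCm38.p6), and 28 of the 35 genes had a window. Windows were searched on both strands for TTTGAA, the core of the element that many mitotic genes use to be silenced outside late cell cycle, for CCAAT, the box bound by NF-Y, for CNGTT, the short site of MYB factors, and for TGACGTCA, the full cAMP response element. Capitals mark the first, second and last of these, and on the other strand TTTGAA reads TTCAAA and CCAAT reads ATTGG. Matches of these 3 did not overlap one another, and CNGTT is not marked because it was in 80.4% of all 27025 windows. The spindle genes shown are Kif11 (chr19:37376132-37376431, plus strand), which slides spindle microtubules apart, Kif15 (chr9:122950831-122951130, plus strand), its backup motor, Kif23 (chr9:61946750-61947049, minus strand), a motor of the cytokinetic midzone, Kif4 (chrX:100625815-100626114, plus strand), a chromosome-bound motor, and Kif2b (chr11:91577506-91577805, minus strand), a microtubule depolymerase. The cilium genes shown are Kif17 (chr4:138262001-138262300, plus strand), a kinesin-2 homodimer, and Kif9 (chr9:110476708-110477007, plus strand), a motor of the flagellar axoneme. The RefSeq starts of Kif17, Kif4, Kif15 and Kif2b lie inside the annotated genes, downstream of their first base.
Kif11: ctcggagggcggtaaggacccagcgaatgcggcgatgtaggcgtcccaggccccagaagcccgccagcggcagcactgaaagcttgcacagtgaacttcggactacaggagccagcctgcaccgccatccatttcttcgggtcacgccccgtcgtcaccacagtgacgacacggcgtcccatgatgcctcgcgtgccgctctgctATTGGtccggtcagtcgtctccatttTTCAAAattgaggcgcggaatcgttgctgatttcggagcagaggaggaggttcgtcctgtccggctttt
Kif15: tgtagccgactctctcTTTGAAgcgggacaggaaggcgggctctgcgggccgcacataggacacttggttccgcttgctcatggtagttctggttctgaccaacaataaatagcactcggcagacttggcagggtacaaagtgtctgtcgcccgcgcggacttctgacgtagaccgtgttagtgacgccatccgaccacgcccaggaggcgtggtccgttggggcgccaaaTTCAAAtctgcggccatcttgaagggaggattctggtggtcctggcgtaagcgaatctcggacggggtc
Kif23: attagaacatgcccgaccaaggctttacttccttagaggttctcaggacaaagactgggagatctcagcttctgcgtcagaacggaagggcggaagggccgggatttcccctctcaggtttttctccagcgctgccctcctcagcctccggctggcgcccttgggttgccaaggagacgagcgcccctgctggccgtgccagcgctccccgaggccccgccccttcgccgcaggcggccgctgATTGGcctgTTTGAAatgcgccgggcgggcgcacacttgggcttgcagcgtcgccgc
Kif4: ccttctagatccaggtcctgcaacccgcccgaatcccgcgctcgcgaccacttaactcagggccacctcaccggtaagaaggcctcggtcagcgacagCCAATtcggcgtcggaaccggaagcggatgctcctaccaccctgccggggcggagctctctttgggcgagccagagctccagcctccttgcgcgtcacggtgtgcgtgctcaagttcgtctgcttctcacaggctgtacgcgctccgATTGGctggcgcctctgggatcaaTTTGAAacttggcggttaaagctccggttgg
Kif2b: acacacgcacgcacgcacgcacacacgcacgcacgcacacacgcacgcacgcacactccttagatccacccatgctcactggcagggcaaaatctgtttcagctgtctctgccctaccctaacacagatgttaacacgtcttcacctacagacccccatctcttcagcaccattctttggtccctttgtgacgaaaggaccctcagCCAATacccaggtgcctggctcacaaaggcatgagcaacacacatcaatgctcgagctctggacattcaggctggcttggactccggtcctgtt
Kif17: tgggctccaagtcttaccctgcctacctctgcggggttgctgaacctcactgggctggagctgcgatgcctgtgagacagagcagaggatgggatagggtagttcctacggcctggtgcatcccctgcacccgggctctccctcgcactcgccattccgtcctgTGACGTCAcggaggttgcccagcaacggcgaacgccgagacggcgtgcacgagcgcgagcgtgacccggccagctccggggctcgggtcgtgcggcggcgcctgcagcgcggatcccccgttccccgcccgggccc
Kif9: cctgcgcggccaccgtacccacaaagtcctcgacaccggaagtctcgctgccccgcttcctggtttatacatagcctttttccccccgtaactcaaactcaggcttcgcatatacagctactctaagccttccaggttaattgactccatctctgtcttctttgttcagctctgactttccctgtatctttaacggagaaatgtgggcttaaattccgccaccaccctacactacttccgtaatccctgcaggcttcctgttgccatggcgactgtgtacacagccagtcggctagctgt

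TTTGAA was present in 10 of 13 spindle, 1 of 8 cilium and 0 of 7 cargo windows, against 18.1% of all windows. The spindle windows without it were those of Kif18a, Kif2a and Kif2b, and the cilium window with it was that of Kif27. CCAAT was present in 8 of 13 spindle, 5 of 8 cilium and 1 of 7 cargo windows, against 37.9% of all windows. TGACGTCA was present in the windows of Kif17, Kif18a and Kif5c, 3 of 28, against 1.88% of all windows, and being a palindrome it matches both strands at once. The windows of Kif14, Kif2c, Kif4, Kif27 and Kif17, all with matches counted here, lie wholly inside the annotated genes, downstream of their first base. A match describes letters in these windows and not a bound site.

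**Figure D1:**
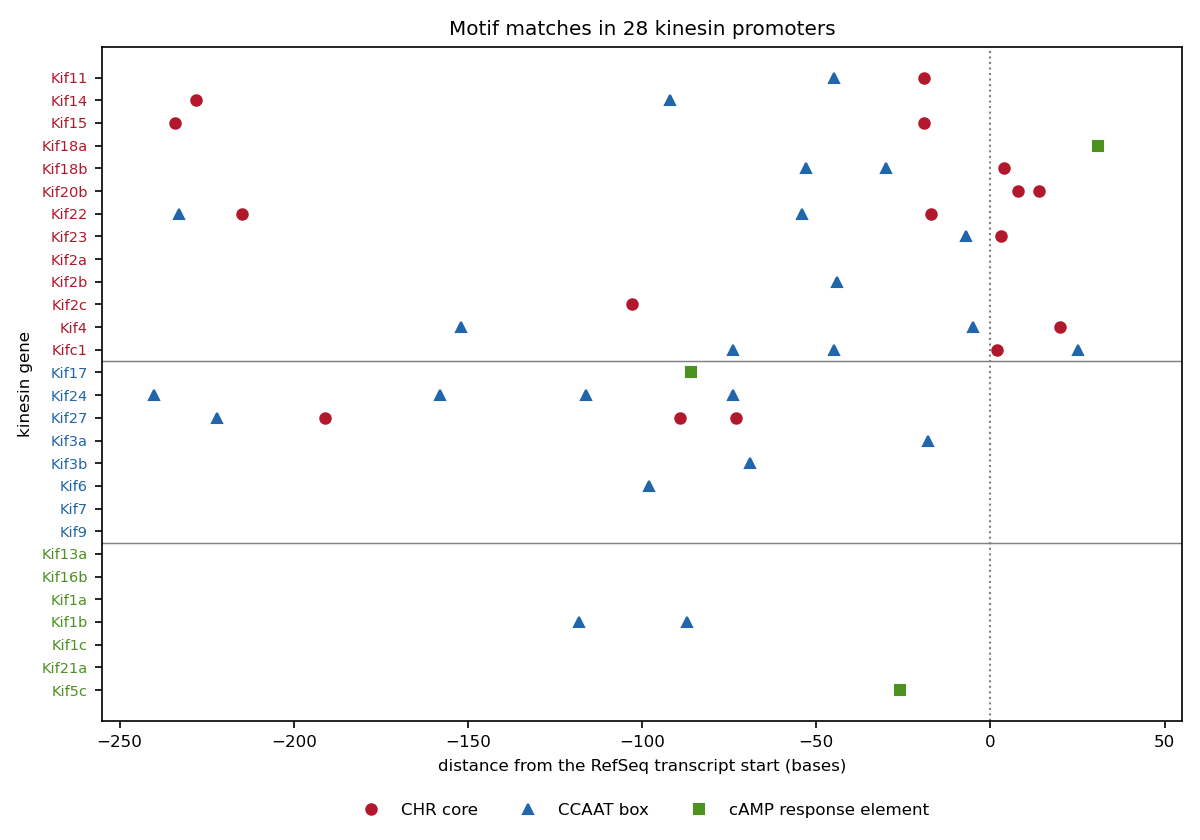
Position of motif matches in the 28 kinesin promoter windows, in bases from the RefSeq transcript start (dotted line), with genes in rows by role (red spindle, blue cilium, green cargo). Red dots mark the core of the cell cycle genes homology region (CHR, TTTGAA), blue triangles CCAAT and green squares TGACGTCA. Matches of TTTGAA lie in 10 of 13 spindle rows and in 0 of 7 cargo rows.

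Most spindle and most cilium kinesins had their highest wild-type group mean, as deposited, in spermatids, and most cargo motors did not. By group mean, 16 of 35 genes were highest in spermatids, 9 in spermatogonia, 5 in MI and 5 in MII spermatocytes, against 37.1%, 24.8%, 12.6% and 25.5% of all genes. MII spermatocytes were the lowest type for 17 of 35 kinesins, against 18.6% of all genes. In KO the same cell type was highest for 26 of the 35. The motors differed by role: 8 of 14 spindle and 5 of 9 cilium genes were highest in spermatids, and 4 of 11 cargo genes were highest in spermatogonia and 5 of 11 in MII spermatocytes. In spermatids against MI spermatocytes, of 14 spindle genes 4 rose and 2 fell, and of 9 cilium genes 2 rose and 0 fell. Over all genes 22.6% rose and 19.8% fell in that comparison. With quantile normalization, estimates there were higher for 6 and lower for 8 spindle genes, and higher for 2 and lower for 7 cilium genes.

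A few genes made up most of the kinesin RNA of spermatids. Kif2b, Kif2a, Kif27, Kif9 and Kif3b held 76.3% of the summed wild-type level there, and Kif2b alone held 31.2%. The 5 most abundant kinesins of wild-type spermatogonia, Kif2a, Kif23, Kif20b, Kif15 and Kif11, held 38.2% of the sum in that type. The median kinesin stood at 9.04 FPKM in wild-type spermatogonia, 9.86 in MI spermatocytes, 6.04 in MII spermatocytes and 11.7 in spermatids.

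**Figure D2:**
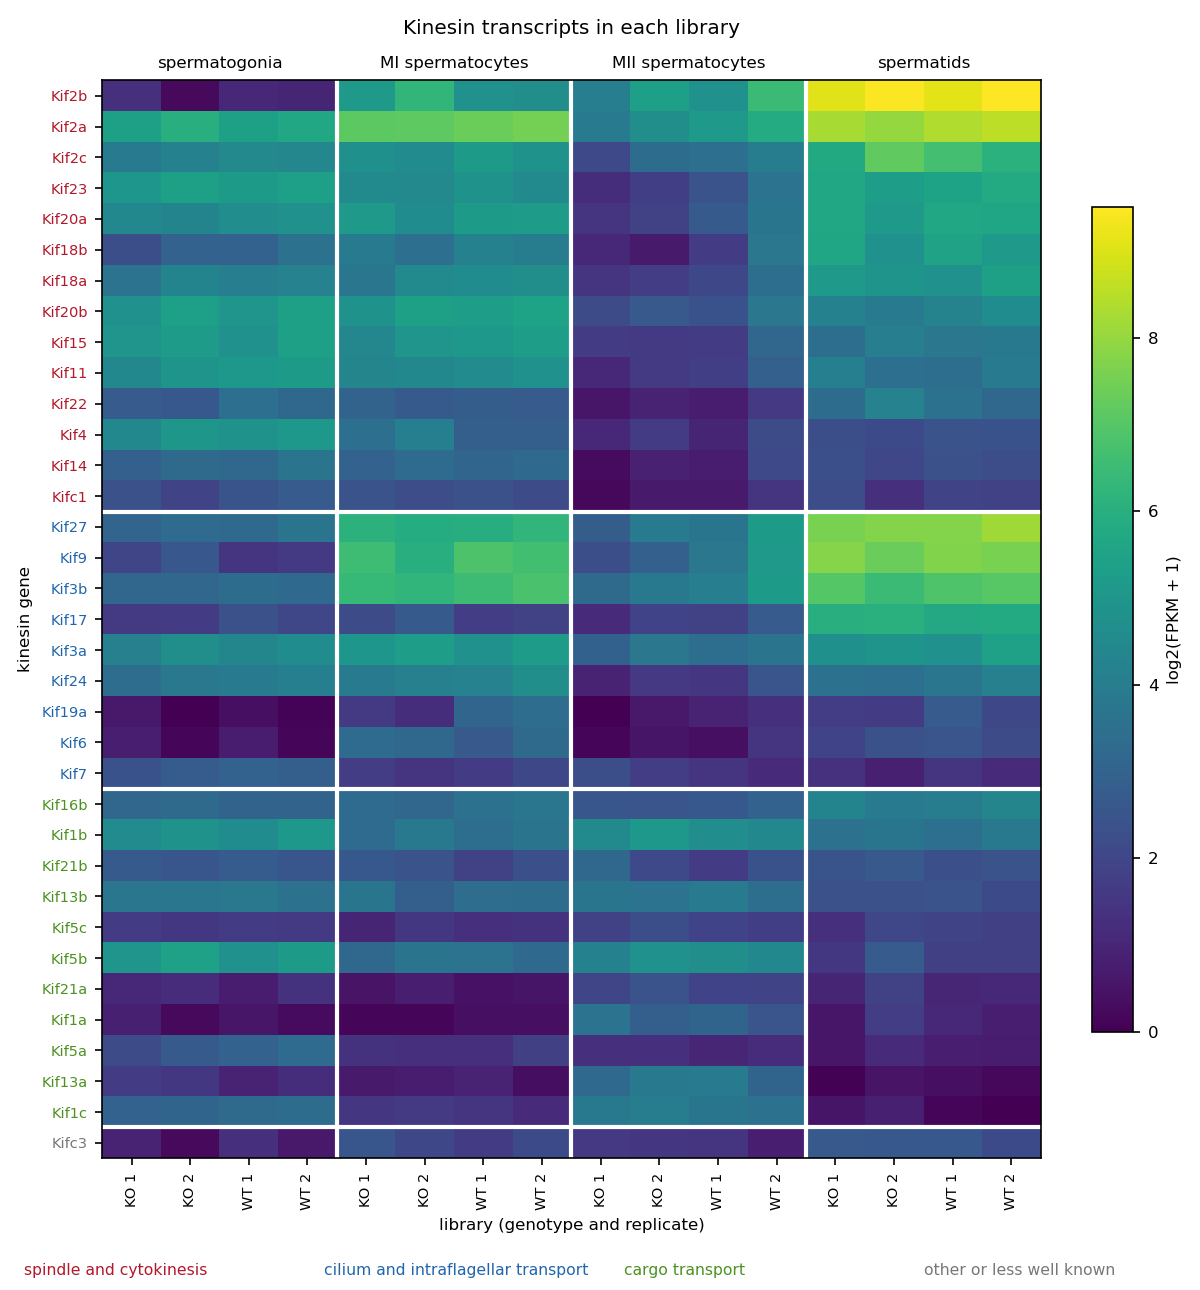
Level of each of the 35 kinesin genes (rows, log2 of FPKM + 1, colour scale from 0 in dark purple to above 9 in yellow) in each of the 16 libraries (columns, by cell type, with KO left of wild type). White lines part the role groups, and rows within a group run from the highest to the lowest in wild-type spermatids. Kif2b is brightest in all 4 spermatid libraries, and the MII columns are darkest for most spindle genes.

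Among the depolymerases of kinesin-13, Kif2b had the widest range of the family. Spermatid libraries held 541 and 699 FPKM in KO and 554 and 727 FPKM in wild type. In spermatogonia Kif2b stood at 1.52 and 0.180 FPKM in KO and at 1.08 and 0.974 FPKM in wild type. Its annotated transcript of 2244 bases fills the whole gene on chromosome 11 (91575315 to 91577558, minus strand), with no intron. Its relative Kif2a, which also trims microtubules at spindle poles, was present throughout, with 257 and 309.6 FPKM in KO spermatids, replicate 1 being the higher, and 327 and 376 FPKM in wild-type spermatids. In spermatogonia Kif2a stood at 41.6 and 60.6 FPKM in KO and at 41.7 and 50.5 FPKM in wild type. Kif2c, the depolymerase of centromeres, varied between spermatid libraries, at 53.6 and 143 FPKM in KO and 101 and 66.1 FPKM in wild type.

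Further spindle motors did not share a single order. By wild-type group mean Kif23, Kif18b and Kif22 were highest in spermatids, Kif11 and Kifc1 in spermatogonia and Kif15 in MI spermatocytes. Kif11 was highest in spermatogonia, at 20.4 and 29.6 FPKM in KO and 32.5 and 35.4 FPKM in wild type, and lowest in MII spermatocytes, at 1.06 and 2.03 FPKM in KO and 2.41 and 6.48 FPKM in wild type. Kif15 was near Kif11 in spermatogonia and stood at 9.85 and 15.7 FPKM in KO spermatids and 12.7 and 13.4 FPKM in wild-type spermatids. Kif23, which in mouse germ cells also sits in the bridges that join sister cells, had 49.9 and 37.9 FPKM in KO spermatids and 45.2 and 55.2 FPKM in wild-type spermatids, with 31.0 and 41.4 FPKM in KO spermatogonia and 35.3 and 40.1 FPKM in wild-type spermatogonia. Kif18b, a kinesin-8 of astral microtubule tips, reached 47.4 and 27.2 FPKM in KO spermatids and 43.7 and 34.6 FPKM in wild-type spermatids. Kif22, a chromosome-bound kinesin-10, stayed lower, at 9.24 and 17.3 FPKM in KO spermatids and 11.1 and 8.08 FPKM in wild-type spermatids. The kinesin-14 Kifc1, a minus-end motor, stood at 4.09 and 2.82 FPKM in KO spermatogonia and 4.49 and 5.55 FPKM in wild-type spermatogonia, its highest wild-type group.

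Of the cilium motors, Kif27, Kif9 and Kif3b passed 100 FPKM in every wild-type spermatid library. Kif27, a relative of the Hedgehog motor Kif7 that is known from motile cilia, held 192 and 213 FPKM in KO spermatids and 214 and 285.5 FPKM in wild-type spermatids. Kif3b, the subunit that pairs with Kif3a in the anterograde motor of intraflagellar transport, held 127 and 89.1 FPKM in KO spermatids and 117 and 130.5 FPKM in wild-type spermatids. Kif3a, its partner, held less, at 26.3 and 28.9 FPKM in KO spermatids and 27.2 and 42.8 FPKM in wild-type spermatids. FPKM are scaled by length, so these levels can be set side by side, and Kif3b was above Kif3a in all 4 spermatid libraries but below it in all 4 spermatogonial libraries.

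The cargo motors were low in spermatids, where Kif1a, Kif5a, Kif13a and Kif1c averaged under 1 FPKM in wild type. MI spermatocytes were similar: the 11 cargo genes summed to 50.5 and 51.8 FPKM there, against 42.3 and 47.9 FPKM in spermatids, both in wild type. The conventional kinesin heavy chain Kif5b was the most abundant kinesin-1, at 29.9 and 42.2 FPKM in KO spermatogonia and 26.7 and 35.1 FPKM in wild-type spermatogonia. In spermatids it stood at 1.88 and 5.62 FPKM in KO and at 2.48 and 2.50 FPKM in wild type. Kif1b, which moves mitochondria and synaptic vesicle precursors in neurons, was the most abundant kinesin-3, at 22.8 and 28.2 FPKM in KO spermatogonia and 23.7 and 32.9 FPKM in wild-type spermatogonia. Kif16b, a motor of early endosomes, stayed above 10 FPKM in spermatids, at 18.5 and 13.9 FPKM in KO and 15.0 and 19.1 FPKM in wild type.

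The remaining motors covered a wide range of levels. Among spindle genes, Kif20b had 27.0 and 39.8 FPKM in KO spermatogonia and 29.7 and 41.1 FPKM in wild-type spermatogonia, and its highest wild-type group was MI spermatocytes, at 38.7 and 45.2 FPKM. Kif18a, which limits chromosome movement at the metaphase plate, was highest in spermatids, at 33.0 and 29.2 FPKM in KO and 26.9 and 40.98 FPKM in wild type. Kif14, a motor of the cytokinetic bridge, had 6.64 and 8.87 FPKM in KO spermatogonia and 8.22 and 11.7 FPKM in wild-type spermatogonia, and under 1 FPKM in 3 of the 4 MII libraries. The highest wild-type group means of Kif18a and Kif14 were thus at opposite ends of the series, but neither was called against MI spermatocytes. Kif18a differed by 0.44 in spermatids against MI spermatocytes (limma adjusted p = 0.42). Kif14 differed by -0.26 in MI spermatocytes against spermatogonia (limma adjusted p = 0.61).

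The cilium motors Kif6 and Kif7 also differed in order. Kif6, a kinesin-9 like Kif9, was highest in MI spermatocytes, with 8.998 and 8.08 FPKM in KO and 5.26 and 8.64 FPKM in wild type. Kif7 was highest in spermatogonia, with 4.24 and 5.83 FPKM in KO and 6.99 and 6.26 FPKM in wild type, both KO libraries lying below both wild-type libraries. Kifc3 stayed at or under 5.37 FPKM in all 16 libraries and was highest in spermatids, at 5.37 and 5.11 FPKM in KO and 5.10 and 3.41 FPKM in wild type.

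Several cargo motors stayed low throughout. Kif5c, the neuronal kinesin-1, lay between 0.990 and 3.88 FPKM in the 16 libraries, and Kif21a, which slows microtubule growth at the cell cortex, between 0.390 and 4.35 FPKM. Kif21b, its relative, lay between 2.19 and 8.28 FPKM, the highest in KO MII replicate 1. Kif13b, a kinesin-3, lay between 6.30 and 14.1 FPKM in the other cell types and lower in spermatids, at 4.14 and 4.06 FPKM in KO and 4.396 and 3.395 FPKM in wild type.

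**Figure D3:**
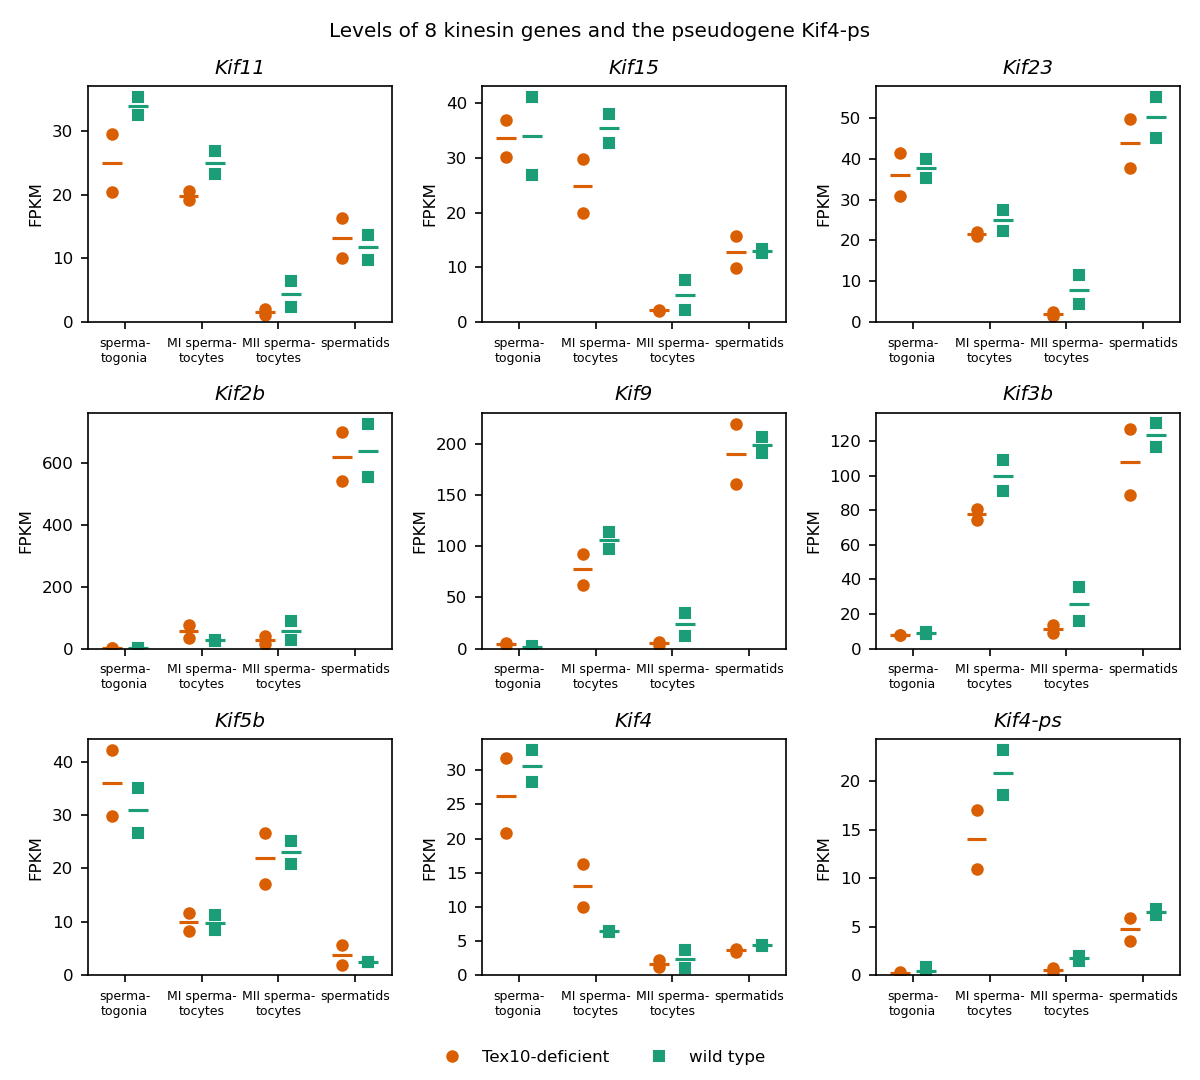
FPKM of 8 kinesin genes and the pseudogene Kif4-ps in each library, with orange dots for Tex10-deficient and green squares for wild-type libraries in the 4 cell types, and short lines at the group means (n = 2). Vertical axes differ between panels. Kif2b in spermatids lies between 541 and 727 FPKM in both genotypes, and Kif4 and Kif4-ps have their highest wild-type levels in different cell types.

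Between wild-type MI spermatocytes and spermatogonia most cilium motors rose and several cargo motors fell. Of 9 cilium genes 5 rose and 1 fell, of 14 spindle genes 2 rose and 1 fell, and of 11 cargo genes 0 rose and 4 fell. Over all genes tested 26.3% rose and 25.7% fell, 51.9% in all. The cilium median was 2.50 on the log2 scale, against -0.0669 for all genes. Kif9 led, with 114 and 97.6 FPKM in MI spermatocytes, against 1.73 and 2.10 FPKM in spermatogonia (log2 change 5.19, SE 0.41, limma adjusted p = 1.2e-06). Kif2b rose by 3.75 (SE 0.55), with 27.2 and 25.3 FPKM in MI spermatocytes, and Kif3b by 3.35 (SE 0.34), with 91.2 and 109 FPKM against 9.31 and 8.46 FPKM in spermatogonia. Kif19a, a motor that limits the length of cilia in mouse, rose by 3.0 (SE 0.35), to 7.61 and 9.53 FPKM in MI spermatocytes, against 0.319 and 0.0768 FPKM in spermatogonia. The remaining cilium rises were Kif27 (2.66) and Kif6 (2.50), and the cilium gene that fell was Kif7 (-1.05), a regulator of Hedgehog signalling at the cilium tip.

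The falls in MI spermatocytes were led by Kif4, with 6.38 and 6.44 FPKM, against 28.3 and 33.0 FPKM in spermatogonia (log2 change -2.09, SE 0.39). The cargo motor Kif1c followed, with 1.79 and 1.19 FPKM in MI spermatocytes, against 8.86 and 9.21 FPKM in spermatogonia (-2.02, SE 0.27). Kif5a, Kif5b and Kif1b fell by 1.58, 1.55 and 1.31 on the log2 scale. All 15 immune markers fell in the same comparison (median -4.21), with sums of 7.13 and 6.42 FPKM in wild-type MI spermatocytes, against 465 and 735 FPKM in wild-type spermatogonia, and their part in the falls of the kinesins was not tested. With quantile normalization, which moves the median of all genes to -0.25, the split of 8 rises and 6 falls became 7 rises and 9 falls.

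Wild-type MII libraries held lower levels of the spindle and cilium motors than MI libraries, and higher levels of several cargo motors. Of 14 spindle genes 0 rose and 13 fell, of 9 cilium genes 0 rose and 7 fell, and of 11 cargo genes 6 rose and 1 fell. Over all genes 30.0% rose and 27.2% fell, 57.2% in all. Kif15 stood at 2.14 and 7.71 FPKM in MII spermatocytes, against 32.7 and 38.1 FPKM in MI spermatocytes (log2 change -2.80, SE 0.41, limma adjusted p = 9.4e-05). Kif24, a kinesin-13 that holds back ciliogenesis in human cells, fell by 2.46 (SE 0.36), Kif11 by 2.36 (SE 0.38) and Kif20b, a motor of abscission, by 2.33 (SE 0.40). Kif2b was the spindle gene that did not pass, with 27.3 and 89.2 FPKM in MII spermatocytes, against 27.2 and 25.3 FPKM in MI spermatocytes (0.89, adjusted p = 0.18). In all of these genes wild-type MII replicate 2 was the higher MII library.

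The cargo motors that rose in MII spermatocytes were Kif13a, Kif1a, Kif1c, Kif21a, Kif5b and Kif1b. Kif13a, an endosome motor, held 14.1 and 7.31 FPKM in MII spermatocytes, against 0.863 and 0.277 FPKM in MI spermatocytes (log2 change 2.86, SE 0.35). Kif1a, a vesicle motor best known from neurons, held 7.37 and 4.63 FPKM in MII spermatocytes, against 0.296 and 0.327 FPKM in MI spermatocytes (2.39, SE 0.39). Kif1c rose by 2.31 (SE 0.27), and Kif16b was the cargo gene that fell (-0.84). All 8 Leydig cell and 5 Sertoli cell markers tested rose in the same comparison, with medians of 4.74 and 2.91, while 16 of 17 meiotic spermatocyte markers fell (median -2.51). The 6 myoid and endothelial markers in the table summed to 4118 and 2315 FPKM in wild-type MII spermatocytes, against 181.5 and 46.6 FPKM in MI spermatocytes, and immune markers to 392 and 668 FPKM, against 7.13 and 6.42 FPKM. Replicate 1, the wild-type MII library with the higher Leydig, myoid and endothelial sums, also had the higher Kif13a and Kif1a. The part of the cell make-up in the cargo rises and in the spindle and cilium falls was not tested. Leaving out single libraries gave between 21 and 28 of the 38 members called, against 28 with all libraries.

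In wild-type spermatids against MII spermatocytes these differences turned round. Of 14 spindle genes 11 rose, of 9 cilium genes 8 rose and of 11 cargo genes 1 rose and 7 fell, against 38.8% of all genes that rose and 35.0% that fell, 73.8% in all. Kif2b rose by 3.65 (SE 0.55), to 554 and 727 FPKM in spermatids, against 27.3 and 89.2 FPKM in MII spermatocytes. Kif27 rose by 3.52 (SE 0.44), with 214 and 285.5 FPKM against 11.9 and 35.5 FPKM in MII spermatocytes, and Kif17 by 3.50 (SE 0.35), with 52.8 and 55.7 FPKM against 2.53 and 5.72 FPKM. Kif9 and Kif2a rose by 3.18 and 2.99. Kif1c was at 0.125 FPKM in 1 spermatid library and listed at 0 in the other, against 11.97 and 10.6 FPKM in MII spermatocytes (-3.53, SE 0.27, limma adjusted p = 5.3e-07). Kif13a, Kif5b, Kif1a and Kif13b fell by 3.19, 2.78, 1.84 and 1.39. The 8 Leydig cell markers fell here too (median -3.89) and the 18 spermatid markers rose (median 3.76), and with single libraries left out 25 to 32 members were called, against 31 with all.

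Spermatids and MI spermatocytes, the types with less somatic RNA, gave a comparison without the MII libraries. Kif2b had 554 and 727 FPKM in spermatids, against 27.2 and 25.3 FPKM in MI spermatocytes (log2 change 4.55, SE 0.55, limma adjusted p = 2.3e-05). Kif17 had 52.8 and 55.7 FPKM in spermatids, against 2.27 and 2.69 FPKM in MI spermatocytes (3.99, SE 0.35, adjusted p = 3.7e-06). In both genes the gap between the cell types was larger than the spread of the libraries within them. Kif17 is the kinesin-2 that in mouse germ cells moves a coactivator of the transcription factor CREM. Kif27 rose by 1.86 (SE 0.44), and Kif2c, Kif2a and Kif23 by 1.34, 1.02 and 0.98. Kif5b, Kif15, Kif1c, Kif13b and Kif11 fell by 1.63, 1.37, 1.22, 1.10 and 1.05.

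In that comparison 6 kinesins rose and 5 fell, against 22.6% and 19.8% of all genes, 42.3% in all. With quantile normalization, where the median of all genes was -0.17, 3 rose and 6 fell, and the median of the 35 kinesins was -0.209 in place of 0.293. The number of members called depended on single libraries. With all libraries 14 of 38 were called. Without wild-type MI replicate 1 there were 8, without MI replicate 2 or spermatid replicate 2 there were 9, and the highest number with a library left out was 18. Kif9, highest in spermatids by mean, did not pass there (0.91, adjusted p = 0.086), nor did Kif3b (0.30, adjusted p = 0.50).

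**Figure D4:**
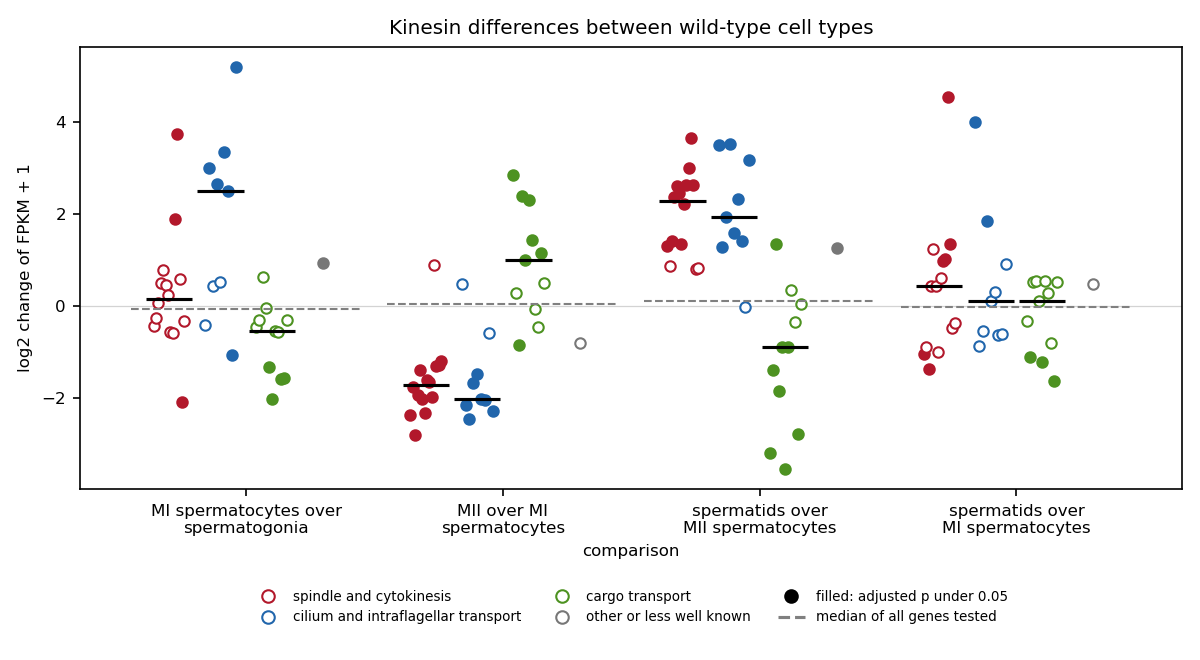
Log2 change of FPKM + 1 for each kinesin gene in 4 comparisons of wild-type cell types, with red, blue, green and grey for spindle, cilium, cargo and other genes. Filled points passed an adjusted p of 0.05 in limma, black bars are group medians and dashed lines are the medians of all genes tested. Spindle and cilium genes lie mostly below 0 in MII over MI spermatocytes and mostly above 0 in spermatids over MII spermatocytes, and cargo genes the other way round.

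Kif4 and its pseudogene differed in direction between spermatogonia and MI spermatocytes. Kif4 lies on chromosome X (100625737 to 100727214, plus strand) and Kif4-ps on chromosome 12 (101145614 to 101149758, plus strand). Kif4-ps had 17.1 and 10.9 FPKM in KO and 18.6 and 23.2 FPKM in wild-type MI spermatocytes, and under 1 FPKM in all 4 spermatogonial libraries, 1 of them at 0. Between these wild-type cell types it rose (log2 change 3.99, SE 0.36, limma adjusted p = 2.3e-06), whereas Kif4 fell. Kif4-ps stood above Kif4 in KO replicate 1 and in both wild-type MI libraries, and below it in KO replicate 2. In MII against MI spermatocytes of the wild type Kif4-ps fell by 3.0, and in spermatids against MI spermatocytes by 1.54. The annotated transcripts of the pair are 79.5% identical over 3692 aligned bases, and the sources used here do not give how reads that fit both were assigned, so the split between them is uncertain.

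The other members outside the motor genes had clear stage patterns. Kif1bp, whose protein binds a subset of kinesins and keeps them off microtubules, had 85.5 and 61.9 FPKM in KO spermatids and 74.1 and 95.6 FPKM in wild-type spermatids. Against wild-type MI spermatocytes, with 16.5 and 15.6 FPKM, this was a rise of 2.32 (SE 0.26). Kif16bos had 12.6 and 19.8 FPKM in KO spermatids and 8.05 and 5.53 FPKM in wild-type spermatids, and was listed at 0 in 10 of the 12 libraries of other cell types and under 1 FPKM in the other two. It rose by 2.94 (SE 0.35) in wild-type spermatids against MI spermatocytes. Kif16bos starts upstream of Kif16b on chromosome 2 (142902965 to 142903572, plus strand) and does not overlap it in the annotation. The level of Kifc1 is uncertain because of Kifc5b, whose transcript is 95.9% identical to it over 2375 aligned bases and which has no row of its own in the table. A pseudogene of Kif22, also without a row, is 92.0% identical over 450 aligned bases.

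Tex10 deficiency gave no kinesin that passed the test in any cell type, in the average over cell types or in the test of whether the effect differed between cell types. Over all genes the share called was 0.0153% in spermatogonia, 0.168% in MI spermatocytes (0.0534% that rose and 0.115% that fell), 0.00763% in MII spermatocytes, 0 in spermatids, 0.0992% in the average (0.0382% that rose and 0.0611% that fell) and 0 in the test between cell types, so few genes of any kind were called. At an unadjusted p under 0.05 there were 1, 2, 13 and 1 of the 35 kinesins in spermatogonia, MI spermatocytes, MII spermatocytes and spermatids, 9 in the average and 4 in the test between cell types. Over all genes 6.60%, 5.84%, 13.3% and 2.17% lay under that value in the 4 cell types, 11% in the average and 6.49% in the test between cell types. The values below describe the genes with the smallest p in each cell type.

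In spermatogonia these were Kif5a, Kif22 and Kif9. Kif5a, a kinesin-1 heavy chain best known from neurons, had 3.50 and 5.48 FPKM in KO, against 6.85 and 8.89 FPKM in wild type (log2 difference -0.71, SE 0.31, limma adjusted p = 0.72). Kif22 had 5.61 and 5.19 FPKM in KO, against 10.2 and 8.19 FPKM in wild type (-0.66, adjusted p = 0.85). Kif9 had 2.96 and 4.94 FPKM in KO, against 1.73 and 2.10 FPKM in wild type (0.74, adjusted p = 0.86). Groups did not overlap in these 3 genes. Both KO libraries were below both wild-type libraries for 12 of 35 kinesins (34.3%, against 19.6% of all genes) and above them for 3 (8.57%, against 16.9%).

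In MI spermatocytes the gene with the smallest p was Kif19a, which had 2.03 and 1.35 FPKM in KO, against 7.61 and 9.53 FPKM in wild type (log2 difference -1.84, SE 0.35, limma adjusted p = 0.059). It passed the threshold when wild-type MII replicate 1 or replicate 2 was left out, and with quantile normalization. In spermatids Kif19a had 2.32 and 2.195 FPKM in KO, against 5.70 and 3.15 FPKM in wild type (-0.70, adjusted p = 1), so KO was below wild type in both types. Kif4 had 9.97 and 16.3 FPKM in KO, against 6.38 and 6.44 FPKM in wild-type MI spermatocytes (0.89, adjusted p = 0.825), and Kif17 had 3.53 and 5.43 FPKM, against 2.27 and 2.69 FPKM (0.64, adjusted p = 0.95). Kif2b, with 34.6 and 75.7 FPKM in KO, against 27.2 and 25.3 FPKM in wild type, had the largest positive difference (0.94, SE 0.55). Both KO libraries were below both wild-type libraries for 14 of 35 kinesins (40.0%, against 18.4% of all genes) and above them for 5 (14.3%, against 15.7%). In the same comparison 13 of 17 meiotic spermatocyte markers had lower estimates in KO (median -0.296) and 16 of 18 spermatid markers higher ones (median 0.338), and their part in the kinesin values was not tested.

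In MII spermatocytes most spindle and cilium kinesins had lower estimates in KO than in wild type, and none passed the test. The point estimate was negative for 14 of 14 spindle genes (median -0.975) and 8 of 9 cilium genes (median -0.776), and positive for 8 of 11 cargo genes (median 0.25), against a median of -0.0169 for all genes. Kif9 had 3.81 and 6.54 FPKM in KO, against 12.7 and 34.7 FPKM in wild type (log2 difference -1.87, SE 0.41, limma adjusted p = 0.074). Kif20a, which brings the chromosomal passenger complex to the midzone, had 1.79 and 2.68 FPKM in KO, against 5.44 and 11.9 FPKM in wild type (-1.51, SE 0.33, adjusted p = 0.074). Kif23 had 1.36 and 2.36 FPKM in KO, against 4.398 and 11.5 FPKM in wild type (-1.54, SE 0.36, adjusted p = 0.083). In these 3 genes the groups did not overlap, and wild-type replicate 2 was more than 2 times replicate 1. Their SE pools the spread of all 8 groups and is not that of the MII libraries alone.

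General germ cell transcripts moved the same way in the MII libraries. All 17 meiotic spermatocyte markers had lower estimates in KO (median -1.42), and so did 17 of 18 spermatid markers (median -0.952). Meiotic markers summed to 147 and 259.6 FPKM in KO and to 335 and 880 FPKM in wild type, with none at 0 in wild type and Spo11 and Ovol2 at 0 in KO replicate 1. Somatic lists had no common direction: estimates were higher in KO for 6 of 8 Leydig cell markers (median 0.237), 3 of 5 Sertoli cell and 3 of 6 myoid and endothelial markers, and lower for 12 of 15 immune markers (median -0.643). The part of the cell make-up in the kinesin differences was not tested. The count of kinesins called rested on 1 library, since without wild-type MII replicate 1, the one with the lower germ cell sums, 13 kinesins passed, all lower in KO, where 9.21% of all genes passed as lower. The spindle and cilium medians were then -1.52 and -1.20. Without wild-type MII replicate 2 no kinesin passed, and these medians were -0.345 and -0.284. Kif20a and Kif9 also passed with median-of-ratios scaling, and with quantile normalization these and Kif23. Both KO libraries were below both wild-type libraries for 13 of 35 kinesins (37.1%, against 18.0% of all genes) and above them for 5 (14.3%, against 17.3%).

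In spermatids, the type with the highest summed kinesin FPKM, the differences were small. The median over the 35 genes was -0.081, against -0.0176 for all genes, and 12 estimates were positive and 23 negative. Kif16bos had 12.6 and 19.8 FPKM in KO, against 8.05 and 5.53 FPKM in wild type (log2 difference 1.13, SE 0.35, limma adjusted p = 1). Kif1c had 0.443 and 0.783 FPKM in KO, against 0.125 FPKM and a listed 0 in wild type (0.60, adjusted p = 1). KO spermatid replicate 2 held more Leydig cell marker RNA, at 244.5 FPKM, than the other spermatid libraries, at 22.1 in KO replicate 1 and 80.1 and 16.6 FPKM in wild type, and also the higher KO level of Kif1c, and its part in that value was not tested. Both KO libraries were below both wild-type libraries for 6 of 35 kinesins (17.1%, against 15.9% of all genes) and above them for 4 (11.4%, against 11.7%).

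Averaged over the 4 cell types, Kif19a had the smallest p (log2 difference -0.81, SE 0.18, limma adjusted p = 0.12), followed by Kif20a (-0.62, SE 0.16, adjusted p = 0.16) and Kif24 (-0.50, SE 0.18, adjusted p = 0.31). The estimate for Kif20a was negative in each cell type, with 20.4 and 18.8 FPKM in KO spermatogonia, against 24.6 and 27.0 FPKM in wild type, and 33.2 and 23.9 FPKM in KO MI spermatocytes, against 34.96 and 37.2 FPKM in wild type. In spermatids its groups overlapped, at 50.1 and 34.4 FPKM in KO and 50.7 and 47.8 FPKM in wild type. Kif24 had 9.65 and 13 FPKM in KO spermatogonia, against 14.2 and 16.3 FPKM in wild type, and 10.7 and 10.1 FPKM in KO spermatids, against 12.4 and 16.4 FPKM in wild type. In MI spermatocytes it had 14.6 and 16.8 FPKM in KO, against 17.6 and 25.2 FPKM in wild type, again with no overlap. In MII spermatocytes, where the estimate for Kif24 was lowest (-0.78, limma adjusted p = 0.37), its groups overlapped. The average estimate was negative for 13 of 14 spindle and 9 of 9 cilium genes and positive for 7 of 11 cargo genes, with medians of -0.38, -0.421 and 0.111 against -0.0187 for all genes. Without wild-type MII replicate 1, 7 kinesins passed in the average, all lower in KO, where 3.63% of all genes passed as lower. Without wild-type MII replicate 2 there were 0, and the spindle and cilium medians were -0.228 and -0.245.

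The smallest adjusted p in the test of a difference between cell types was 0.49, for Kif9. Its difference was 0.74 in spermatogonia, -0.47 in MI spermatocytes, -1.87 in MII spermatocytes and -0.08 in spermatids, where it had 219.9 and 161 FPKM in KO, against 207 and 191 FPKM in wild type. No kinesin was thus shown to respond differently between the cell types.

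**Figure D5:**
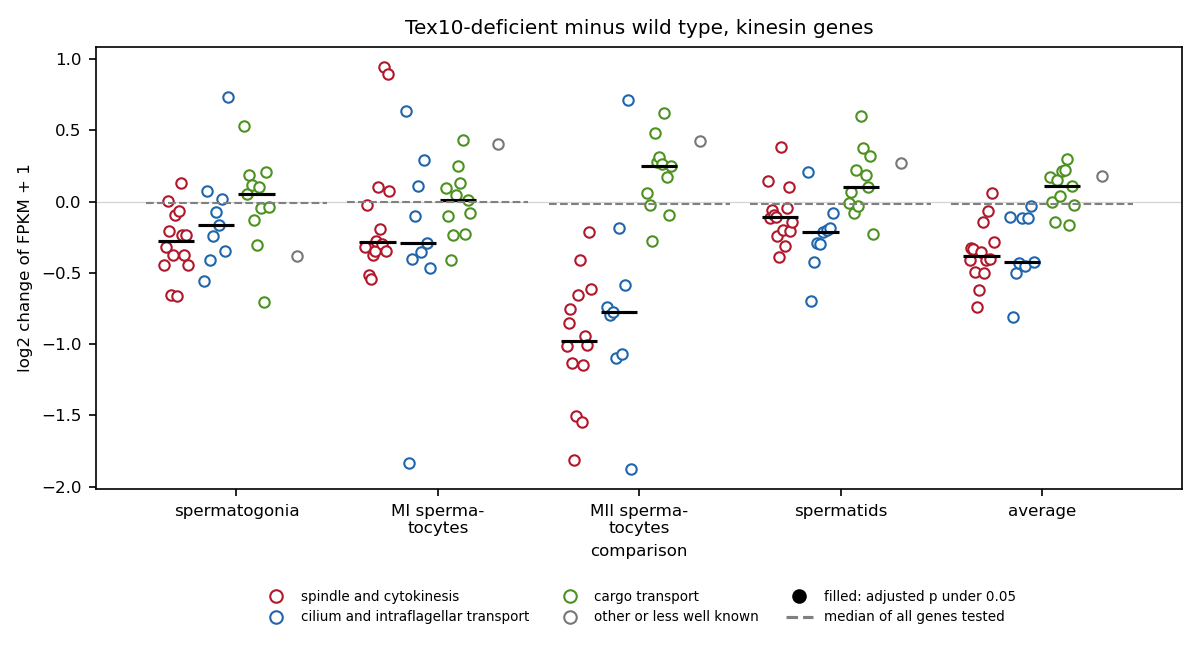
Log2 difference of FPKM + 1, Tex10-deficient minus wild type, for each of the 35 kinesin genes in each cell type and in their average, with red, blue, green and grey for spindle, cilium, cargo and other genes. Black bars are group medians and dashed lines are the medians of all genes tested. All points are open because none passed an adjusted p of 0.05, and the red and blue points lie lowest in MII spermatocytes.

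Genes known to work with kinesins were taken as lists by function. Their stage counts are to be read against the shares of all genes given above for the same comparisons. None of the genes on these lists was called between KO and wild type in any cell type. Cenpe, the kinesin-7 that captures kinetochore microtubules, had 2.47 and 9.07 FPKM in KO MII spermatocytes, against 9.15 and 40.1 FPKM in wild type (log2 difference -1.79, SE 0.57, limma adjusted p = 0.16), with the same order of wild-type replicates as the spindle kinesins. Within the wild type it fell by 1.98 in MII against MI spermatocytes and rose by 2.67 in spermatids against MII spermatocytes. Of 32 spindle and cytokinesis partners such as Aurora kinases, 15 rose and 2 fell in MI spermatocytes against spermatogonia, 1 rose and 30 fell in MII against MI spermatocytes, and 28 rose and 2 fell in spermatids against MII spermatocytes. Aurka, a kinase of spindle poles, rose by 3.36 (SE 0.47) in MI spermatocytes, and Prc1, which binds the midzone with Kif4, fell by 2.83 (SE 0.40) in MII spermatocytes.

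The intraflagellar transport proteins that kinesin-2 carries mostly rose in MI spermatocytes. Of 23 tested, 20 rose and 0 fell in MI spermatocytes against spermatogonia (median 2.37), 0 rose and 18 fell in MII against MI spermatocytes, and 20 rose and 1 fell in spermatids against MII spermatocytes. Ift172 had 79.8 and 99.5 FPKM in wild-type MI spermatocytes, against 5.73 and 7.72 FPKM in spermatogonia (3.56, SE 0.36). Of 18 genes of the manchette, the microtubule skirt that shapes the sperm head, 13 rose and 3 fell in MI spermatocytes against spermatogonia. Kifap3, the non-motor subunit that joins Kif3a and Kif3b, had 114 and 160 FPKM in KO spermatids and 118 and 182 FPKM in wild-type spermatids, and within the wild type rose by 2.60 (SE 0.30) against MI spermatocytes.

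The light chains and adaptors of cargo motors were called in shares near those of all genes. Of 19 tested, 6 rose and 6 fell in MI spermatocytes against spermatogonia (26.3% and 25.7% of all genes), 6 rose and 4 fell in MII against MI spermatocytes (30.0% and 27.2%), and 8 rose and 8 fell in spermatids against MII spermatocytes (38.8% and 35.0%). Klc1, a light chain of kinesin-1, had 0.763 and 0.195 FPKM in wild-type spermatids, against 19.2 and 9.10 FPKM in MII spermatocytes (-3.30, SE 0.35). Grip1, an adaptor of Kif5 in neurons, had 58.6 and 52.1 FPKM in wild-type spermatids, against 1.13 and 1.40 FPKM in MI spermatocytes (4.64, SE 0.59). Of 23 genes of dynein and dynactin, the motor of the opposite direction, 9 rose and 4 fell in MI spermatocytes against spermatogonia (26.3% and 25.7% of all genes). In spermatids against MI spermatocytes 5 rose and 4 fell, near the 22.6% and 19.8% of all genes, with the largest rise in the light chain Dynll2 (3.01, SE 0.28).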

How the data were processed

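Values were taken as the authors deposited them, as FPKM from polyA-enriched libraries. The smallest deposited value was 1, so 1 was taken to have been added to each value, which no label states. Per the submitters' processing notes, the tools included Cufflinks 2.2.1, STAR 2.7.6a, cutadapt, FastQC 0.10.1 and Trim Galore 0.6.3, with build mm10. The sources used here do not give the annotation, the gene filter or any further scaling. The added 1 was subtracted. After that, 3.33% of values were 0, and such a gene is described as listed at 0, since a failed estimate can also give a 0. Depth is unknown, because the files hold no read numbers, and the summed FPKM of a library (187713 to 533859) does not stand for it; counting intervals are left out. The gene 1110002L01Rik was dropped because 1 of its cells is not a number.

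Groups came from sample titles. Genes that reached 1 FPKM in 2 or more libraries, 13099 in all, were tested on log2(FPKM + 1) with limma 3.58.1 (R 4.3.3; lmFit, eBayes with trend) in a single fit of 8 groups, with Benjamini-Hochberg adjustment over all of them. This scale understates changes of low genes. Replicate numbers were not used as pairs, since nothing in the labels says that a number is shared. Steps were tested on simulated data. Changed genes were drawn from those with a mean log2(FPKM + 1) above 2, with a gene's noise equal in all groups. The recovery does not cover lower genes or groups with a wider spread. For simulated KO against wild-type MI spermatocytes, 70% of log2 changes of 2 and 11% of changes of 1 were called. Of the 87 calls there, 6 were false. Positions were looked up by symbol in GENCODE M21 (GRCm38, equal to mm10), promoter sequences from RefSeq (GRCm38.p6), and identities of copies from BLAST 2.17.0. Tables were made with Python 3.11.15 and pandas 2.3.3, figures with matplotlib 3.10.9. The alternatives tried were replicate blocks, quantile normalization, median-of-ratios scaling, an untrended eBayes, another pseudocount (0.1 or 5) or filter (none or 5 FPKM), grouping by the cell type field, no MII libraries, and each library left out.

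The members, lists and naming rule were chosen with earlier results of these data known. Named genes were, per genotype comparison, the 3 members with the smallest p where none was called; per wild-type comparison, up to 5 called rises and 5 falls by size with at least 1 FPKM in the higher group; the most abundant member of each subfamily; and up to 2 called members per partner list. Kif2a, Kif2c, Kif3a, Kif14, Kif16b, Kif6 and Kif7 and some further members were named after their values were seen.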

Additional observations from a re-analysis of the deposited data

How the results depend on the processing

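Single-gene results kept direction and side of the threshold in 1434 fits, passed newly in 27, no longer passed in 11 and reversed in 4. No kinesin was called between KO and wild-type spermatogonia or spermatids under any alternative, and the stage counts kept within 1.5 times except in spermatids against MI spermatocytes. In MI spermatocytes, KO against wild type, the count of members called was 0 and became 1 (Kif19a) with a pseudocount of 5, with quantile normalization and without the MII libraries, 10 with grouping by the cell type field, and 0 to 1 with each library left out. In MII spermatocytes it was 0 and became 2 with median-of-ratios scaling, 3 with quantile normalization, 12 with grouping by the field, and 0 to 13 with each library left out. Same-numbered libraries deviated together with r of 0.14 to 0.36 between wild-type cell types and -0.08 to 0.42 between KO cell types; between KO and wild type r was 0.2, 0, 0.31 and -0.13 in spermatogonia, MI, MII and spermatids. Whether the numbers pair libraries is thus unclear, most of all in wild type, where every value was above 0.1. With a replicate block the KO MII count was 4 (Kif9, Kif20a, Kif23 and Kif2a), with a replicate block within genotype 3 (without Kif2a), and with the KO spermatid numbers crossed, a pairing added after seeing the data, 4; other KO counts stayed at 0, and the wild-type counts of 15, 28, 31 and 14 became 16, 29, 33 and 16 with the replicate block. With single libraries left out the average over cell types gave 0 to 7, the test between cell types 0 to 1 (11 by the field), and spermatids against MI spermatocytes 8 to 18. Grouped by the cell type field, 4 differences reversed: Kif9, KO against WT MII spermatocytes, gave 2.7, Kif20a, KO against WT MII spermatocytes, 2.2, Kif23, KO against WT MII spermatocytes, 2.06, and Kif16bos, KO against WT spermatids, -0.752. By expression 8 of 8 KO libraries lay nearest to the wild-type cell type of their title, and 2 of 8 to that of the field. The cause of the reversals was not tested. Quantile normalization gave an all-gene median of -0.25, against -0.07 as deposited, in MI spermatocytes against spermatogonia, and of -0.21, against 0.05, in MII against MI spermatocytes.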
